A study of Sus scrofa with 4 samples.

Results

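HAS3, an enzyme that makes hyaluronan, was examined in porcine oocytes together with the other genes of the hyaluronan pathway. HAS3 was selected on its read counts in these libraries, so its values are given as a description without a test. HAS1, HAS2, CD44 and HMMR were named as its companions. Of these 5 genes, 3 were found among the 4381 gene symbols of the counts table: HAS3, HAS1 and HAS2, the last under its porcine symbol SHAS2. CD44 and HMMR, which encode hyaluronan receptors, were not analysed here. A wider list of hyaluronan genes, written by role, gave 37 listed genes including the synthases. Of the 37, 24 had at least 1 count and 19 passed the filter on low counts, HAS3 among them.

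The oocytes came from Sus scrofa and were at the M II stage, after maturation in vitro within their cumulus cells for 42 to 44 h. There were 2 control libraries and 2 SIRT6-inhibited libraries, the latter from oocytes matured with SIRT6-IN-1 at 100 μM, a cell-permeable inhibitor of the deacylase SIRT6. The inhibitor was dissolved in DMSO, and whether the control medium held DMSO is not given in the sources used here. Oocytes were pooled (100 per group); the number in each library and the way cumulus cells were removed before RNA extraction are likewise not given. In what follows, a pair of values gives library 1 first and library 2 second. Reads counted on the listed genes came to 4646129 and 3405960 for the controls, and to 3239200 and 4972602 for the inhibited pair. No source says that libraries of the same group came from separate cultures, so the p-values measure only the spread between these libraries, which may be technical.

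Hyaluronan is a long, unsulfated sugar chain of the extracellular matrix. The synthases HAS1, HAS2 and HAS3 sit in the plasma membrane and add glucuronic acid and N-acetylglucosamine in turn from UDP-sugars of the cytosol, passing the growing chain out of the cell. Around the ovulating oocyte, hyaluronan made chiefly by HAS2 of the cumulus cells is held by proteins such as TNFAIP6, PTX3 and versican, and this matrix expands the cumulus.

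HAS3 had 55780 and 41439 counts in the controls, against 43110 and 66422 under SIRT6 inhibition. As a share of the library totals this was 1.20% (95% Wilson interval 1.19 to 1.21) and 1.22% (1.21 to 1.23) in the controls, against 1.33% (1.32 to 1.34) and 1.34% (1.33 to 1.35) under inhibition. Such intervals, and the floors given for counts of 0, cover counting error alone, since reads multiplied by PCR do not each stand for a separate molecule. By number of reads, HAS3 was the eighth of the listed genes in each of the 4 libraries. This order, like each other ranking by abundance given here, is of reads and not of transcripts, because transcript lengths were not used. Transcript levels of different genes are thus not compared.

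After scaling, HAS3 stood at 12036 and 11658 normalized CPM (counts relative to the TMM-scaled library total) in the controls, against 13385 and 13825 under inhibition. Both SIRT6-inhibited libraries lay above both controls, and the groups did not overlap. The mean was 11847 ± 267 normalized CPM in the control group and 13605 ± 311 in the inhibited group (SD, n = 2 each). HAS3 was thus 14.8% higher under inhibition, a log2 difference of 0.20. Taken singly, the ratios of an inhibited to a control library ran from 1.11 to 1.19, and from 1.09 to 1.11 when only library totals were used. Of all 2387 tested genes, 40.1% had groups that did not overlap, with 17.9% higher and 22.2% lower in both inhibited libraries. In pooled material of this kind, fewer cells of a type and less RNA per cell cannot be told apart.

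Replicate libraries hardly differed in HAS3. The log2 gap between them was 0.046 in the controls and 0.047 under inhibition. Over all tested genes the median gap was 0.39 and 0.44, and over the 100 genes with the most reads it was 0.15 and 0.088. Of the tested genes, 68.9% had a larger absolute log2 fold change between the groups than HAS3.

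**Figure D1:**
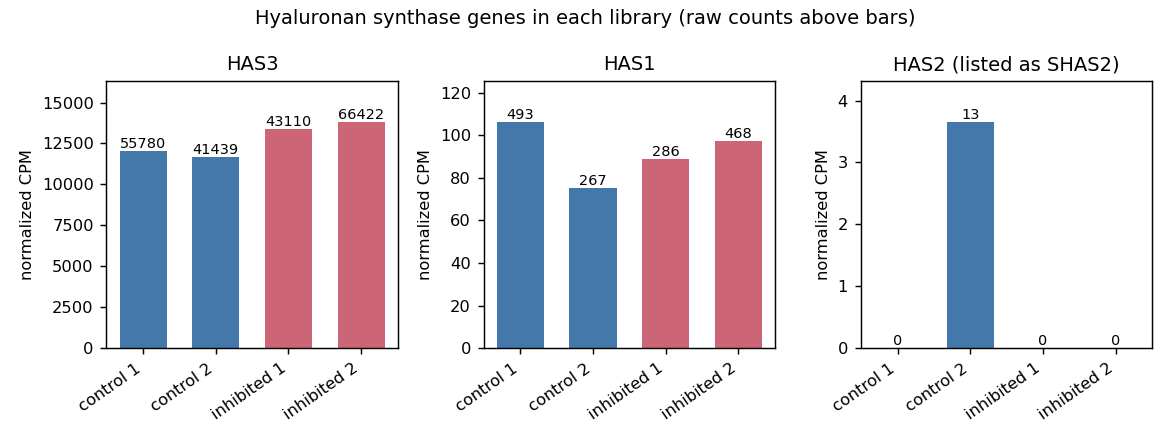
Normalized CPM of the 3 hyaluronan synthase genes in each library (blue, control; red, SIRT6-inhibited), with the raw counts printed above the bars and a separate vertical axis for each gene. HAS3 lies between 11658 and 13825 normalized CPM in the 4 libraries, HAS1 between 75.1 and 106, and HAS2 has counts in control library 2 alone.

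Other genes with many reads gave the setting for this difference. Among the 20 tested genes with the highest mean normalized CPM, 16 had a log2 fold change above 0, with a median of 0.060 and a range of -0.098 to 0.34. HAS3 had the fifth highest value of the 20. Among those above it were INPP1, an inositol polyphosphate phosphatase (log2 fold change 0.34), the nuclear receptor coactivator NCOA3 (0.25) and WEE2, the oocyte kinase that holds CDK1 in check (0.23). In 8 of the 20 genes, HAS3 included, both inhibited libraries were above both controls, and in the other 12 the groups overlapped; of all tested genes, 17.9% were higher and 22.2% lower in both inhibited libraries.

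HAS1 had far fewer reads than HAS3, with 493 and 267 counts in the controls against 286 and 468 under inhibition. Scaled, these were 106 and 75.1 normalized CPM against 88.8 and 97.4. Both inhibited values lay between those of the controls. The log2 fold change of HAS1 was 0.036, within a 95% interval of -0.70 to 0.77 (standard error 0.31, edgeR quasi-likelihood test, Benjamini-Hochberg adjusted p = 0.992). It changed sign with library totals only (-0.017), without control library 2 (-0.20) and without inhibited library 2 (-0.034). For each read on HAS1 there were 113 and 155 reads on HAS3 in the controls, against 151 and 142 under inhibition, so the controls held both the lowest and the highest ratio. HAS1, HAS2 and HAS3 are paralogs, and how reads fitting more than 1 of them were assigned is not given in the sources used here, which leaves the smaller counts uncertain.

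HAS2, the synthase of the expanding cumulus, was close to undetected. It had 13 counts in control library 2, or 3.66 normalized CPM, and 0 counts in the other 3 libraries. A count of 0 allows up to 3 counts, which was 0.646 CPM in control library 1 and 0.926 and 0.603 CPM under inhibition. HAS2 did not pass the filter on low counts and was not tested. Of all reads on the 3 synthases, HAS3 took 99.1% and 99.3% in the controls and 99.3% in each inhibited library. In the RefSeq annotation of Sscrofa11.1, HAS3 shares 282 bases with TANGO6, which was not analysed here, HAS1 overlaps no gene, and HAS2 shares 5691 bases with an uncharacterized locus. Whether counting used the strand is not given in the sources used here, so reads from those stretches cannot be assigned to either gene.

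The hyaluronan genes other than HAS3 did not move together. A gene is called here when its unadjusted p-value in the quasi-likelihood test of edgeR is under 0.05, which held for 216 of all tested genes (9.05%) and for 2 of these 18 (11.1%). Both were lower under SIRT6 inhibition: HK1, a hexokinase, and HEXA, a subunit of lysosomal hexosaminidase. After Benjamini-Hochberg adjustment edgeR called 0 of the 18, and 0 of all tested genes (0%). DESeq2 called 37 genes after adjustment, and 0 of the 16 hyaluronan genes to which it gave an adjusted p (HEXA and GUSB had none). With a library left out, edgeR called 77 genes after adjustment without inhibited library 1, 25 without inhibited library 2, 1 without control library 2 and 0 without control library 1, again with 0 of the hyaluronan genes. Without control library 2 the unadjusted count was 111, with 0 hyaluronan genes. The median log2 fold change of the 18 was 0.047, also with HEXA at the bound given below, against -0.039 over all tested genes. Of the 18, 12 were above 0 and 6 below, beside 1126 above and 1261 below among all tested genes. Among the 100 genes with the most reads, 68 were above 0. These shares were not compared by a test. The groups did not overlap for 5 of the 18 (27.8%), beside 40.1% of all tested genes, and this difference in share was not tested. Of the 5, 4 were lower (HEXA, HK1, PGM1 and GNPNAT1) and 1 was higher (OGT) in both inhibited libraries.

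**Figure D2:**
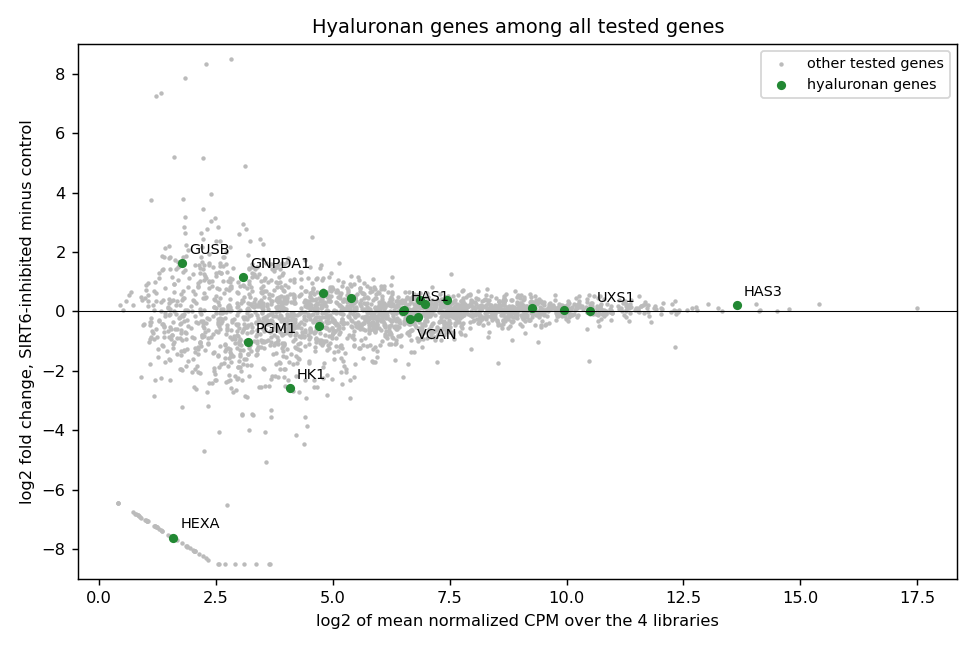
Log2 fold change (SIRT6-inhibited minus control) against the log2 of the mean normalized CPM over the 4 libraries, for the 2387 tested genes (gray), with the 19 tested hyaluronan genes in green. HAS3 sits far to the right at a log2 difference of 0.20, and HEXA, at 0 counts in both inhibited libraries, at the lower left, where its fitted value depends on the prior count and is no bound; values beyond ±8.5 (9 genes) were drawn at that edge.

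Of the hyaluronan receptors, 3 were listed, and they gave almost no reads. LYVE1, STAB1 and STAB2, like CD44 and HMMR, were not analysed here. LAYN, which encodes the hyaluronan receptor layilin, had 0 and 5 counts in the controls against 0 and 11 under inhibition. The innate immune receptors TLR2 and TLR4, which can respond to hyaluronan fragments, had 0 counts in the 4 libraries. None of the 3 was tested.

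Of 7 listed genes that break hyaluronan down, 4 were tested. HYAL2, a membrane-anchored hyaluronidase, had 25.5 and 45.0 normalized CPM in the controls against 56.5 and 40.0 under inhibition. The groups overlapped (log2 fold change 0.45, standard error 0.52, edgeR adjusted p = 0.956), and the log2 fold change of HYAL2 ranged from 0.091 without control library 1 to 0.92 without control library 2. GUSB, the lysosomal glucuronidase, had 12 counts in control library 2, 50 in inhibited library 2, and 0 in the others. HYAL1, HYAL3 and the sperm hyaluronidase SPAM1 had 0 counts in the 4 libraries.

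HEXA had 36 and 15 counts in the controls and 0 counts in both inhibited libraries. The mean floor of the inhibited libraries, at 3 counts each, was 0.778 normalized CPM. Against it, the inhibited mean of HEXA was at least 7.70-fold lower than the control mean, and at least 5.42-fold lower than the lower control library. HEXA was called (edgeR unadjusted p = 0.0413, adjusted p = 0.534). Fits without this call included those with the replicate number as a block (edgeR unadjusted p = 0.309), with all genes of at least 1 count (0.0791), and with a library left out: 0.443 without control library 1, 0.209 without control library 2, 0.0810 without inhibited library 1 and 0.115 without inhibited library 2.

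Among the matrix proteins that bind hyaluronan, a pair of genes had reads in each library. VCAN, which encodes the large proteoglycan versican, had 82.6 and 136 normalized CPM in the controls against 38.8 and 142 under inhibition. The inhibited libraries thus held both the lowest and the highest value. With all libraries the log2 fold change came to -0.27 (edgeR adjusted p = 0.984, standard error 0.59). It was 0.37 without inhibited library 1 and 0.13 without control library 2, whereas without inhibited library 2 it was -1.50 and was called (edgeR unadjusted p = 0.00196, adjusted p = 0.0929, with adjusted p from 0.766 to 1.00 under the other alternatives).

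HABP4, which encodes an intracellular protein that binds hyaluronan and RNA, had 167 and 133 normalized CPM in the controls against 234 and 158 under inhibition. The groups overlapped (log2 fold change 0.39, standard error 0.27, edgeR adjusted p = 0.820). For HABP4 the log2 fold change was 0.072 without inhibited library 1 and 0.64 without inhibited library 2, and it was called in neither fit. HABP2, a secreted serine protease, had 0 and 6 counts in the controls against 8 and 15 under inhibition, higher in both inhibited libraries but too few to be tested. PTX3 had 12 counts in control library 1 alone, and the link protein gene HAPLN1 had 6 in control library 2 alone. The other 7 of the 12 listed matrix genes, TNFAIP6, ACAN, AMBP and ITIH1 to ITIH4, had 0 counts in the 4 libraries.

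**Figure D3:**
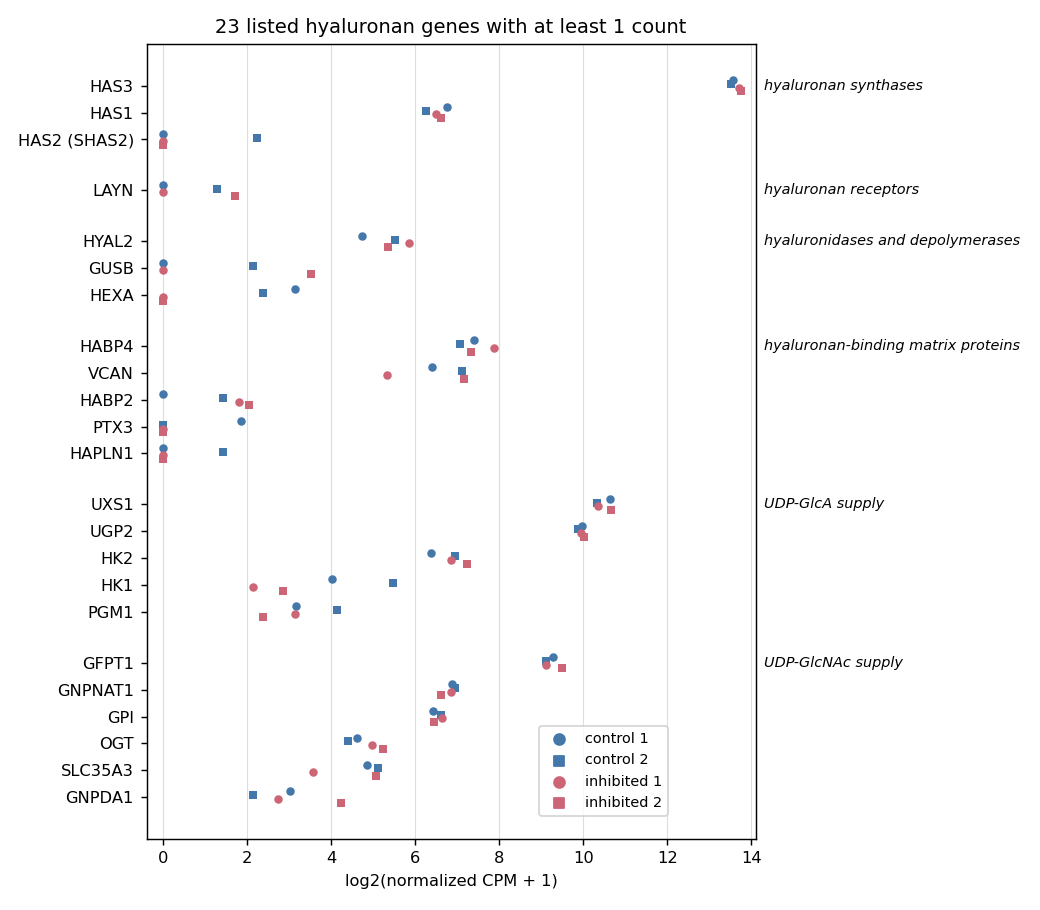
Log2(normalized CPM + 1) of 23 of the 24 listed hyaluronan genes with at least 1 count, grouped by role, with 1 point per library (blue, control; red, SIRT6-inhibited; circles, library 1; squares, library 2). The points of HAS3 lie close together near the right edge, while HK1, HEXA, PGM1 and GNPNAT1 have both red points left of both blue points.

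Of the genes that supply or use the UDP-sugars 12 were listed, and others, UGDH among them, were not analysed here. Of the 12, 11 were tested and 1, HK1, was called (9.09%, beside 9.05% of all tested genes), with a median log2 fold change of 0.025 over the 11. UGP2, which makes the UDP-glucose that UGDH oxidizes to UDP-glucuronic acid, had 1005 and 936 normalized CPM in the controls against 979.9 and 1041 under inhibition. The groups overlapped, and the log2 fold change of 0.058 had a 95% interval of -0.22 to 0.34 (standard error 0.12, edgeR adjusted p = 0.983). For UGP2 it was 0.00058 with library totals only, and ranged from 0.0034 without control library 2 to 0.10 without control library 1. UXS1, which turns UDP-glucuronic acid into UDP-xylose, had 1584 and 1285 normalized CPM against 1308 and 1611. The groups overlapped, and the spread within each was wider than the gap between their means (log2 fold change 0.025, standard error 0.16, edgeR adjusted p = 0.992). The sign of UXS1 changed with library totals only (-0.032), without control library 2 (-0.12) and without inhibited library 2 (-0.13).

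On the side of UDP-N-acetylglucosamine, GFPT1, the rate-limiting enzyme of the hexosamine pathway, had 621 and 556 normalized CPM in the controls against 555 and 717 under inhibition. The inhibited libraries again held both extremes (log2 fold change 0.11, standard error 0.17, edgeR adjusted p = 0.977), and without inhibited library 2 the sign changed (-0.085). GNPNAT1, the acetyltransferase further along that pathway, had 117 and 123 normalized CPM against 114 and 97.0. Both inhibited libraries lay below both controls, but the difference was within the error of the fit (log2 fold change -0.19, standard error 0.26, edgeR adjusted p = 0.977), and it ranged from -0.31 without inhibited library 1 to -0.075 without inhibited library 2. GPI, the isomerase between glucose and fructose phosphates, had 84.4 and 97.3 normalized CPM against 97.8 and 85.5, with overlap (log2 fold change 0.013, standard error 0.28, edgeR adjusted p = 0.996). Its sign changed with library totals only (-0.046), without control library 1 (-0.095) and without inhibited library 1 (-0.091).

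Hexokinases phosphorylate the glucose from which both UDP-sugars are made. HK1 had 15.1 and 43.0 normalized CPM in the controls against 3.42 and 6.24 under inhibition. Both inhibited libraries were below both controls, while the controls also differed from each other. The log2 fold change of HK1 was -2.57 (standard error 0.99, edgeR unadjusted p = 0.0372, adjusted p = 0.526). Fits without this call included that with the replicate number as a block (log2 fold change -2.46, edgeR unadjusted p = 0.0618) and that without control library 2 (log2 fold change -1.64, edgeR unadjusted p = 0.405). HK2 had 81.6 and 122 normalized CPM against 115 and 148, with overlap (log2 fold change 0.37, standard error 0.31, edgeR adjusted p = 0.905), and its log2 fold change ranged from 0.095 without control library 1 to 0.68 without control library 2. Whether HK1 and HK2 differed in their change was not tested.

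Since HAS2 and its matrix partners belong to the cumulus, markers of oocyte and cumulus were read in the same libraries. The 14 listed oocyte markers all had reads, WEE2 the most, and summed to 120120 and 118163 normalized CPM in the controls against 123411 and 127200 under inhibition. In this sum of the 14, both inhibited libraries lay above both controls. Without WEE2 the other 13 summed to 78487 and 80048 normalized CPM against 77733 and 79029.6, where the groups overlapped. The median log2 fold change of the 14 was -0.019, with 8 below 0. Of the 14, 3 were called (21.4%, against 9.05% of all tested genes): WEE2 was higher (log2 fold change 0.23, edgeR adjusted p = 0.487), and GDF9 (-1.65, adjusted p = 0.469) and ZP2 (-0.37, adjusted p = 0.510) were lower. The 21 listed markers of cumulus and granulosa cells summed to 268 and 216 normalized CPM against 130.1 and 199. The progesterone receptor PGR had the highest mean over the 4 libraries. The listed marker FDX1 lay above PGR in inhibited library 1 (39.1 against 23.3 normalized CPM) and below it in each other library. Of the 21, 6 had 0 counts in the 4 libraries (FSHR, LHCGR, AMH, AMHR2, HSD17B1 and KRT8), and 0 of the 10 tested were called. Of those 10, 6 had groups that did not overlap, 5 lower and 1 (CYP11A1) higher, with a median log2 fold change of -0.62; over all tested genes 40.1% did not overlap, 22.2% lower and 17.9% higher. Among the 5 were PGR, with 66.5 and 60.2 normalized CPM in the controls against 23.3 and 57.9 (edgeR adjusted p = 0.898), and SERPINE2, with 40.1 and 30.7 against 21.1 and 7.08 (edgeR adjusted p = 0.718).

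The 10 listed genes of cumulus expansion, HAS2 among them, summed to 103 and 163 normalized CPM in the controls against 56.5 and 142 under inhibition, most of it VCAN. TNFAIP6 and AREG had 0 counts in the 4 libraries, and 0 of the 4 tested genes were called (9.05% of all tested genes were), with a median log2 fold change of -0.92, 3 below 0 and 1 above. Of the 4, PTGS2 and EGFR were lower in both inhibited libraries, as were 22.2% of all tested genes. PTGS2, the prostaglandin synthase of the ovulating follicle, had 22 and 12 counts in the controls and 0 counts in both inhibited libraries. Against the mean floor of the inhibited libraries (0.778 normalized CPM), the inhibited mean of PTGS2 was at least 5.22-fold below the control mean. It was at least 4.34-fold below the lower control library (edgeR unadjusted p = 0.0625, adjusted p = 0.570). The epidermal growth factor receptor EGFR had 43 and 36 counts against 21 and 0. The protease gene ADAMTS1, the tested gene above 0, had 18 and 15 counts against 36 and 0, and the groups overlapped (log2 fold change 0.45, edgeR adjusted p = 0.992). What part cumulus cells had in the values of the hyaluronan genes was not tested.

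Genes with the pattern most like HAS3 were sought by the Euclidean distance over the 4 libraries between log2(normalized CPM + 1) values, each centred on the gene's own mean. The nearest were TUBB2B (distance 0.0295), a beta-tubulin, RBM38 (0.0299), an RNA-binding protein, CDC25C (0.0443), a phosphatase that activates CDK1, HIGD2A (0.0460), a mitochondrial inner membrane protein, and ELAVL1 (0.0530), an RNA-binding protein that stabilizes mRNAs. The median distance over all tested genes was 0.864. RBM38 had 3186 and 3091 normalized CPM in the controls against 3632 and 3722 under inhibition. TUBB2B had 334 and 323 against 379 and 391, and whether reads were shared with other tubulin genes was not tested. These 5 genes were chosen for their likeness to HAS3, so neither their direction nor their small distances carry a test. With Pearson's correlation as the measure of likeness, TUBB2B alone of the 5 was again among the 5 nearest.

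**Figure D4:**
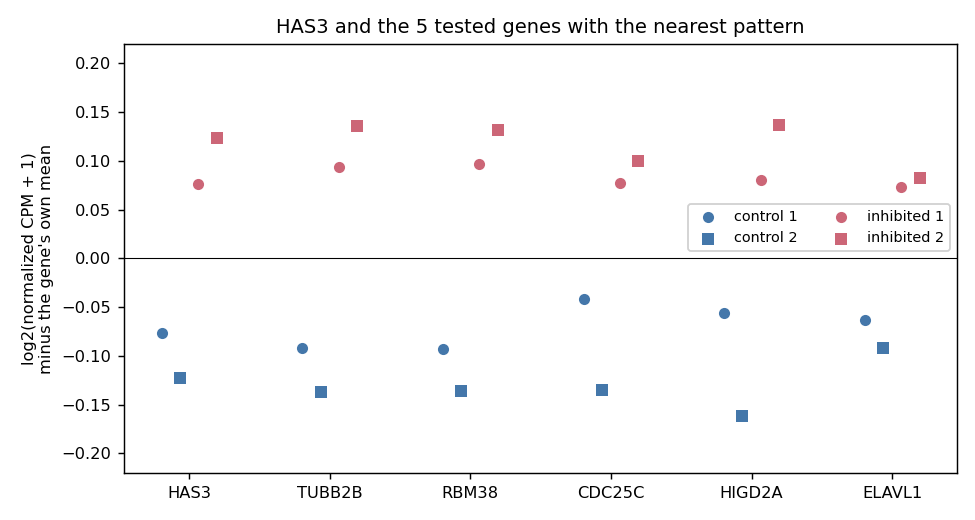
Log2(normalized CPM + 1) minus the gene's own mean over the 4 libraries, for HAS3 and the 5 tested genes with the nearest pattern, with 1 point per library (blue, control; red, SIRT6-inhibited; circles, library 1; squares, library 2). In each of these genes both red points lie above 0 and both blue points below it; for HAS3 they lie at 0.076 and 0.12 and at -0.077 and -0.12.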

How the data were processed

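RNA of 2 control and 2 SIRT6-inhibited libraries of M II oocytes was sequenced. The authors deposited raw counts per gene symbol, not normalized. Libraries were primed at random and enriched by PCR, and the labels add an amplification by Smart-seq2. The submitters' processing notes name TopHat2 2.0.13, Cufflinks 2.2.1, Cuffnorm and Cuffdiff and the builds susScr11 and mm10, with no role for any, so no coordinates are given. The counting tool, annotation and strand setting are not given in the sources used here. No sequences or transcript lengths were used.

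Of the symbols, 4299 of 4381 (98.1%) matched a RefSeq symbol or synonym of Sscrofa11.1, used for names and neighbours. Counts were analysed in R 4.3.3 with edgeR 4.0.16 and limma 3.58.1. The function filterByExpr (minimum count 10, minimum total 15) kept 2387 genes, and TMM factors were 0.966 to 1.04. Groups were compared by the two-sided quasi-likelihood test of edgeR, and p-values were adjusted by Benjamini-Hochberg across all tested genes. A standard error is the size of the log2 fold change over the square root of F. The floor of 3 counts was 0.603 to 0.926 CPM. The fit was tested on simulated data. Alternatives were other scaling, other filters, DESeq2 1.42.0, the replicate number as a block, and leaving out each library; a left-out library leaves a lone library that is assumed to vary like the other group.

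Members and lists were chosen with earlier results of these data known. Genes were named by rule: the synthases, any called and the 3 most abundant genes of each hyaluronan role, the most abundant gene and the 2 with the smallest p of each other list, and the 5 genes nearest to HAS3. Other genes were named after their values were seen, and a gene that the rule names but the text does not is not reported here. A further part of the rule, on levels per kilobase, could not be applied without lengths.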

Additional observations from a re-analysis of the deposited data

How the results depend on the processing

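The log2 difference of HAS3 was above 0 in each fit, the crossed pairing included. It was 0.14 with library totals only, a move larger than its replicate spread, and 0.17 to 0.22 in the others. Each inhibited library lay above each control with and without scaling (lowest ratios 1.11 and 1.09), and HAS3 was selected on its counts. The shared sign therefore carries no test. Deviations of same-numbered libraries from their group means were only weakly correlated across genes (-0.12, and by construction 0.12 for crossed libraries). No source says that the numbers pair libraries. A crossed pairing was added after seeing the data. Hyaluronan genes called numbered 0 with the replicate block, 0 with the crossed pairing, 1 without a filter, 1 with at least 10 counts in every library, and 0 to 2 with each library left out. Genes called after adjustment numbered 41 without a filter, 2 with at least 10 counts in every library, 37 with DESeq2, 6 with the replicate block, 2 with the crossed pairing, and 0 to 77 with each library left out. Unadjusted calls ranged from 111 to 302 with each library left out. With library totals only, HAS1 (-0.017), UXS1 (-0.032) and GPI (-0.046) changed sign. With each library left out, log2 fold changes ranged from -0.20 to 0.30 for HAS1, -1.50 to 0.37 for VCAN, -0.13 to 0.18 for UXS1, -0.095 to 0.11 for GPI and -0.085 to 0.28 for GFPT1. The cause of these changes was not tested. HEXA could not be fitted with at least 10 counts in every library. At totals of 3239200 to 4972602 counts, a gene at 0 counts in a whole group has only a bound on its fold, and HAS2, with counts in 1 library, was not tested.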

Other observations

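Lists of other glycosaminoglycan genes and of partners of the receptor HMMR were read in the same way. CHSY1, which builds the chondroitin chain, had 74.7 and 56.5 normalized CPM in the controls against 52.2 and 64.5 under inhibition. The groups overlapped (log2 fold change -0.17, standard error 0.36, edgeR adjusted p = 0.984), and the other 2 listed genes of this kind were not tested.

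HMMR also acts at the spindle, where DYNLL1, a dynein light chain, and the kinase AURKA are among its partners. DYNLL1 had 97.5 and 363 normalized CPM in the controls against 106 and 35.8 under inhibition. The groups overlapped, with the highest value in control library 2 and the lowest in inhibited library 2. DYNLL1 was called (log2 fold change -1.70, standard error 0.71, edgeR unadjusted p = 0.0499, adjusted p = 0.546). It was 1 of the 2 tested partners (50%, beside 9.05% of all tested genes). AURKA had 279.9 and 1097 normalized CPM against 659 and 175, with its extremes in the same libraries (log2 fold change -0.73, standard error 0.74, edgeR adjusted p = 0.941).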
